A study of Mus musculus with 20 samples.

Results

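A set of 9 genes that keep mitochondria supplied with nucleotides was followed in RNAseq of mouse pancreatic islets, the hormone-secreting clusters of the pancreas in which insulin-producing β-cells are the main cell type. They were chosen by name for their place in this pathway, with earlier results of these data known. They were the carriers *Slc25a33* and *Slc25a36*, the mitochondrial deoxynucleoside kinases *Tk2* and *Dguok*, and the ribonucleotide reductase subunits *Rrm1* and *Rrm2b*. The others were the nucleotide-degrading enzymes *Samhd1* and *Tymp*, and the mitochondrial kinase *Cmpk2*. All 9 were found among the 28632 genes of the count table. The mice were 12 weeks old, of both sexes and kept on the C57BL/6N background, and lacked the mitochondrial fusion proteins Mitofusin 1 (*Mfn1*), Mitofusin 2 (*Mfn2*) or both in β-cells. Floxed alleles of either gene were removed by Cre expressed from the *Ins1* locus, so that deletion was limited to β-cells and every other islet cell kept both genes. There were 4 β-Mfn1KO, 5 β-Mfn2KO and 5 β-Mfn1/2DKO libraries. The 6 Ctrl libraries carry the label wild type, while the methods of the study pool Cre-only and floxed-only mice as controls, and which of these each Ctrl mouse was is not given in the sources used here. Isolated islets were kept in culture for a day before RNA was extracted.

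Mitochondrial DNA (mtDNA) is copied throughout the life of a cell that no longer divides, and its copying depends on deoxynucleotides inside the mitochondrion. These come from outside through carriers of the inner membrane, or are made inside by salvage, in which deoxynucleosides are phosphorylated by mitochondrial kinases. Cytosolic ribonucleotide reductase provides deoxynucleotides from ribonucleotides, with Rrm2b as the small subunit used outside S phase. Inherited loss of *TK2*, *DGUOK*, *RRM2B* or *TYMP* in people causes depletion or deletion of mtDNA.

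Total counts ran from 12.4 to 20.3 M per library in Ctrl, from 15.7 to 16.7 M in β-Mfn1KO and from 15.1 to 59.5 M in β-Mfn2KO. The β-Mfn1/2DKO libraries were the deepest, at 65.5 to 122.9 M. More than 40 M counts were held by each of the 5 β-Mfn1/2DKO libraries and by 2 of the 5 β-Mfn2KO libraries (replicates 4 and 5), but by no Ctrl library, so that genotype and depth cannot be told apart in β-Mfn1/2DKO against Ctrl. The targeted genes matched their labels. *Mfn1* was lower by 1.31 ± 0.11 (log2, SE) in β-Mfn1KO and by 1.07 ± 0.09 in β-Mfn1/2DKO, and *Mfn2* by 1.15 ± 0.08 in β-Mfn2KO and by 0.75 ± 0.07 in β-Mfn1/2DKO. All 10 β-cell markers, insulin genes included, were detected in every group and lower in β-Mfn1/2DKO than in Ctrl. All 12 markers of acinar cells, the enzyme-secreting cells around islets, were higher there, with summed levels of 867598 and 2219505 normalized counts in β-Mfn1/2DKO replicates 4 and 5 against 20962 to 36452 in the other 3, and 13353 to 98635 in Ctrl. All 8 endothelial markers were also higher, while 1 of 10 macrophage markers differed, downwards. In bulk islets, fewer cells of a type and less RNA per cell cannot be told apart.

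In β-Mfn1/2DKO islets the pyrimidine nucleotide carrier *Slc25a33* rose 2.93-fold over Ctrl, and the second carrier, *Slc25a36*, and the kinase *Tk2* rose by small amounts. The study had reported higher *Slc25a33* from these same libraries, so that its rise is not an independent finding. None of the 9 genes passed the test in the other direction. The remaining 6 genes, *Dguok*, *Rrm1*, *Rrm2b*, *Samhd1*, *Tymp* and *Cmpk2*, did not pass the test. Thus 3 of 9 genes passed an adjusted p of 0.05 in edgeR's quasi-likelihood test, where 16.5% of all 28632 genes and 31.9% of the 13492 genes whose mean reached 50 normalized counts did so. All 9 genes lie above that mean. The 3 that passed were higher, as were 18.7% of those 13492 genes, and *Slc25a33* alone also exceeded 1.5-fold, as did 8.08% of them in either direction. Before adjustment, 6 of the 9 had a p under 0.05, as did 7974 of all 28632 genes. In *Slc25a33*, *Slc25a36* and *Tk2* every β-Mfn1/2DKO library lay above every Ctrl library, and 19.5% of the 13492 genes had no overlap in either direction. The median log2 fold change of the 9 genes was 0.11, against 0.03 over the same 13492 genes. Apart from *Slc25a33*, the share and size of changes in this pathway were thus near the background of the comparison.

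**Figure D1:**
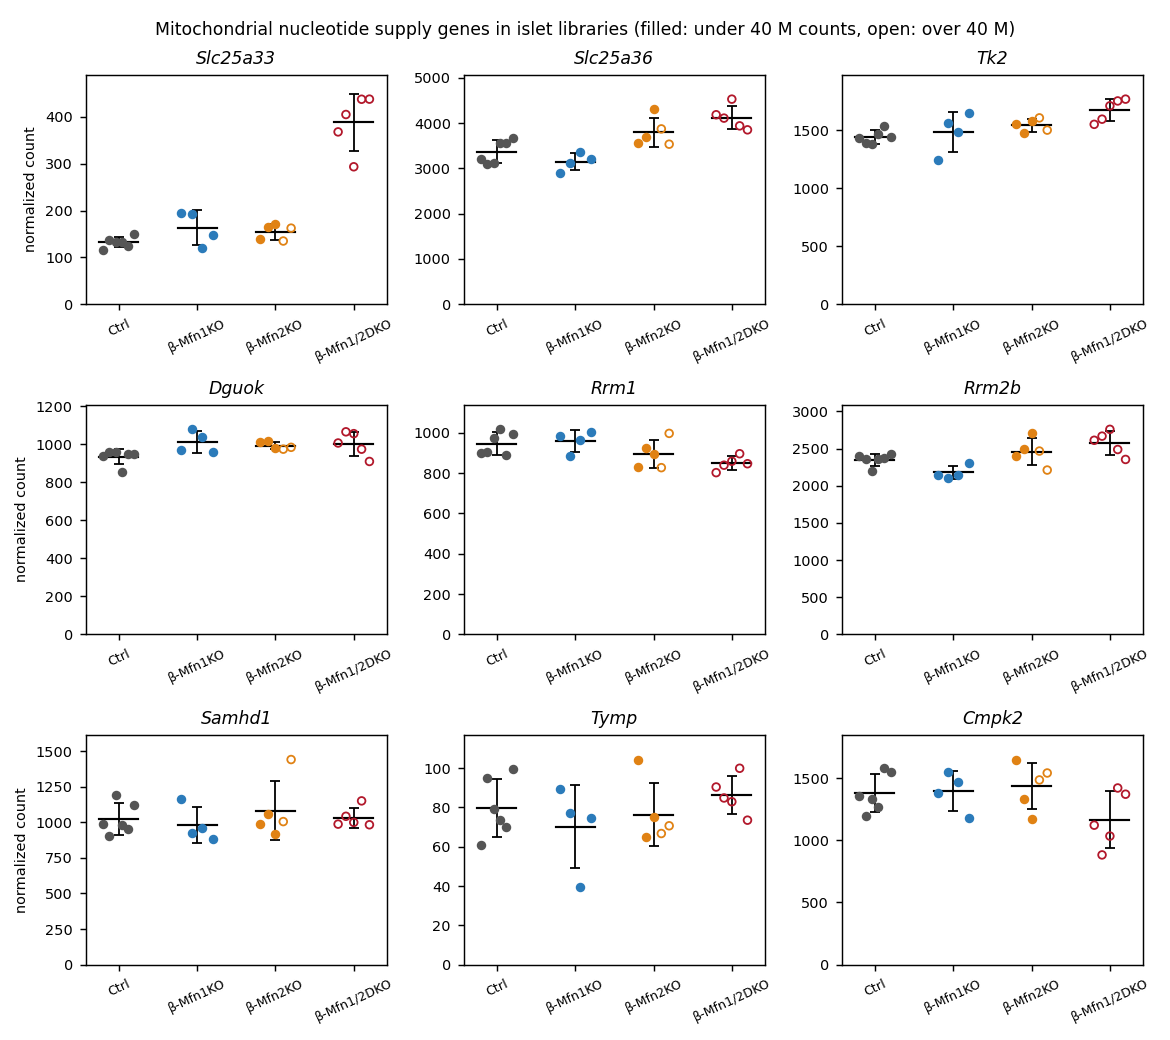
Normalized counts (y axis, TMM-scaled to the mean library) of the 9 genes in each library of the 4 groups (x axis), with lines and bars for mean and SD and open points for libraries over 40 M counts. *Slc25a33* in the 5 β-Mfn1/2DKO libraries, at 293.5 to 438.0, lies above every other library, while most other genes overlap between groups.

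*Slc25a33* encodes a carrier of the inner mitochondrial membrane that moves pyrimidine nucleotides, among them thymidine and uridine nucleotides, into the matrix. The gene (ENSMUSG00000028982) spans chr4:149744036-149774277 on the minus strand of GRCm38. Its promoter, in the RefSeq table for GRCm38.p6 (chr4:149774218-149774517, minus strand), is shown because this gene carried the response, with matches to the searched motifs in capitals:
Slc25a33 promoter: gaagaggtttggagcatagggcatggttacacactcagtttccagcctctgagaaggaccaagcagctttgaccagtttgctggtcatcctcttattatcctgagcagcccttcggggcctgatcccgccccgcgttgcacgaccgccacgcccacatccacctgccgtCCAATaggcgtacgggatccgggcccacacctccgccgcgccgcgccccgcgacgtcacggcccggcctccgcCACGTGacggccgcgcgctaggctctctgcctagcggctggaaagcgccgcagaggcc

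Before scaling, *Slc25a33* had 38 to 65 counts per library in Ctrl and 703 to 1197 in β-Mfn1/2DKO. Its normalized counts in Ctrl were 116.3 at the lowest, 133.5 at the median and 149.4 at the highest. In β-Mfn1KO they were 195.4, 192.5, 119.2 and 146.9, and in β-Mfn2KO 138.2, 165.3, 172.3, 135.0 and 162.5. In β-Mfn1/2DKO they were 368.0, 405.2, 293.5, 437.8 and 438.0, so that the lowest of these libraries stood well above the highest of any other group. Its mean level was 133 ± 11.2 in the 6 Ctrl libraries and 389 ± 60.4 (SD) in the 5 without either mitofusin, which is a rise of 1.55 ± 0.13 on the log2 scale (SE, adjusted p = 5.6e-08). Of the 13492 genes, 98.8% had a lower log2 fold change. The rise was between 1.5 and 1.66 when each library was left out in turn, and 1.44 without replicates 4 and 5, the β-Mfn1/2DKO libraries with high acinar markers. With depth class in the fit it was 1.64 (adjusted p = 0.00062). That term rests on β-Mfn2KO alone, the only group with libraries of both depth classes, and it raised the SE from 0.13 to 0.25. The β-Mfn2KO libraries of over 40 M counts, replicates 4 and 5, had 135.0 and 162.5 normalized counts, against 138.2 to 172.3 in the other 3 of their group. β-Mfn1/2DKO exceeded these 2 alone by 1.43 ± 0.18 (log2, SE, adjusted p = 0.0040).

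The other pyrimidine nucleotide carrier, *Slc25a36*, moves cytosine, uracil and guanine nucleotides across the same membrane. The gene (ENSMUSG00000032449) lies at chr9:97074961-97111157 on the minus strand. Its promoter (chr9:97110992-97111291, minus strand) is shown for comparison with that of *Slc25a33*, with motif matches in capitals:
Slc25a36 promoter: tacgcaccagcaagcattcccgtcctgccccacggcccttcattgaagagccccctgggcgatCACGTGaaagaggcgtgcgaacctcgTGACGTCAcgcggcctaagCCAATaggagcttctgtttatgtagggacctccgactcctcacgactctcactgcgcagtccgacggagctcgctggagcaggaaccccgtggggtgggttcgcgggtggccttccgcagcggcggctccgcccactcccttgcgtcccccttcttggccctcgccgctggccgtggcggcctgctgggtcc

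Ctrl values of *Slc25a36* ran from 3090.4 to 3677 around a median of 3383. β-Mfn1/2DKO libraries stood at 4185, 4110.4, 4529.5, 3939.5 and 3852, all above the highest Ctrl library. Means were 3369 ± 259 (SD, n = 6) and 4123 ± 263 (SD, n = 5), which differ by 0.29 ± 0.06 in log2 (SE, adjusted p = 0.0018). It had the same direction under every alternative tried, and missed the threshold when depth class was in the fit (0.35, adjusted p = 0.11). Of its transcript, 9.76% of 75-base stretches also occur in *Gm13217*, so that some reads could be shared between them.

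The pair of deoxynucleoside kinases of the mitochondrial matrix divide the salvage of DNA precursors. *Tk2* (ENSMUSG00000035824, chr8:104226685-104248558, minus strand) phosphorylates thymidine and deoxycytidine, and *Dguok* (ENSMUSG00000014554, chr6:83480217-83506969, minus strand) deoxyguanosine and deoxyadenosine. The *Tk2* promoter (chr8:104248509-104248808, minus strand) is shown as that of the third gene that rose, and holds no searched motif:
Tk2 promoter: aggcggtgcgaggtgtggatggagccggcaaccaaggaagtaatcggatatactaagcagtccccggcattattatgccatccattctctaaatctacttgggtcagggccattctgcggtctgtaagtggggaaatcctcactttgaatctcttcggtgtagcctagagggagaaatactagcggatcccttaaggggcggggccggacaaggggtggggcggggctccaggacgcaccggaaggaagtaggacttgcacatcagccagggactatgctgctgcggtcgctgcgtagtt

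*Tk2* stood at 1379.7 to 1536 in Ctrl, with a median of 1436, and at 1551, 1595, 1710.4, 1753 and 1768 in β-Mfn1/2DKO. The highest Ctrl library and the lowest β-Mfn1/2DKO library were close, but did not overlap. Its rise was 0.22 ± 0.06 in log2 (SE, adjusted p = 0.012). It lost the call with the authors' normalization factors (0.17, adjusted p = 0.12), with depth class in the fit (0.20, adjusted p = 0.42) and without β-Mfn1/2DKO replicates 4 and 5 (0.19, adjusted p = 0.076). *Dguok* stood at 855.9 to 960.3 in Ctrl, and the 5 β-Mfn1/2DKO libraries at 1006, 1065, 1055, 973.5 and 909.0, so that the groups overlapped. Its log2 difference was 0.10 (95% interval −0.00 to 0.20, adjusted p = 0.22), so that a change past 1.5-fold lies outside the interval.

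Ribonucleotide reductase makes deoxynucleotides from ribonucleotides in the cytosol. *Rrm1* (ENSMUSG00000030978, chr7:102441695-102469771, plus strand) encodes its large subunit, and *Rrm2b* (ENSMUSG00000022292, chr15:37923952-37961318, minus strand) the p53-inducible small subunit. *Rrm1* stood at 888.9 to 1017 in Ctrl, and the 5 β-Mfn1/2DKO libraries at 802.5, 839.4, 859.1, 896.3 and 846.7. The β-Mfn1/2DKO values lay below the Ctrl range in 4 of the 5 libraries. The log2 difference was −0.16 ± 0.06 (SE) and missed the threshold (adjusted p = 0.075), but passed it in 5 of 13 alternatives, among them DESeq2 (−0.18, adjusted p = 0.012) and the authors' normalization factors (−0.34, adjusted p = 0.039). *Rrm2b* stood at 2194 to 2422 in Ctrl, and the 5 β-Mfn1/2DKO libraries at 2612, 2668, 2759.6, 2488 and 2354. Its log2 difference was 0.13 ± 0.05 (SE, adjusted p = 0.086) and it passed without β-Mfn1/2DKO replicates 4 and 5 (0.21, adjusted p = 0.014), whose values were the lowest of their group. *Rrm2*, the S-phase small subunit, singled out here after its values were seen, ranged from 58.1 to 91.2 normalized counts in Ctrl and from 34.9 to 163 in β-Mfn1/2DKO (log2 difference 0.01, adjusted p = 1.0).

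The remaining genes act on the size and makeup of the pool. *Samhd1* (ENSMUSG00000027639, chr2:157097533-157135265, minus strand) encodes an enzyme that degrades deoxynucleoside triphosphates. It stood at 905.3 to 1194 in Ctrl, and the 5 β-Mfn1/2DKO libraries at 987.6, 1043, 999.8, 1151 and 983.1, with a log2 difference of 0.01 (95% interval −0.18 to 0.21, adjusted p = 0.96). Its level was highest in β-Mfn2KO replicate 5, at 1442, against 920.7 to 1061 in the other 4 libraries. That library also had a summed level of 10 macrophage markers of 36381, against 3481 to 5128 in the other 4, and of 7 stellate cell and fibroblast markers of 13443, against 863 to 3026. Ctrl replicate 6 had a similar macrophage sum of 26598, and its *Samhd1* value was 1121, the second highest of its group. The part of these cells in the *Samhd1* level was not tested.

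*Cmpk2* (ENSMUSG00000020638, chr12:26469204-26479837, plus strand) encodes the mitochondrial UMP-CMP kinase, an interferon-induced enzyme that phosphorylates pyrimidine monophosphates. It stood at 1197 to 1585 in Ctrl, and the 5 β-Mfn1/2DKO libraries at 1122, 882.7, 1034, 1421 and 1371, of which replicates 1 to 3 lay below the Ctrl range and replicates 4 and 5 within it. Over all 5 libraries the log2 difference was −0.24 ± 0.11 (SE, adjusted p = 0.15). Without replicates 4 and 5 it was −0.42 (adjusted p = 0.011), and with the acinar marker level in the fit −0.33 (adjusted p = 0.041). *Tymp* (ENSMUSG00000022615, chr15:89371931-89377039, minus strand) encodes thymidine phosphorylase, which breaks down thymidine. Before scaling, *Tymp* had only 21 to 45 counts per library in Ctrl. It stood at 61.1 to 99.6 in Ctrl, and the 5 β-Mfn1/2DKO libraries at 90.4, 84.8, 82.9, 99.9 and 73.5 (log2 difference 0.11, 95% interval −0.27 to 0.49, adjusted p = 0.75). Its values are uncertain, since 42.0% of its exon bases lie within exons of *Sco2* on the same strand and 26.3% within those of *Ncaph2* on the opposite strand, a gene whose mean count was 3764% of that of *Tymp*.

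Single loss of either mitofusin moved none of the 9 genes past the threshold, in edgeR or in DESeq2. For *Slc25a33* in β-Mfn1KO DESeq2 gave no adjusted p (0.29 ± 0.18, log2, SE), so that it holds no verdict there. In β-Mfn2KO against Ctrl 0.0559% of all genes passed an adjusted p of 0.05, and in β-Mfn1KO against Ctrl 0.0279%. Before adjustment, 1208 of all 28632 genes had a p under 0.05 in β-Mfn2KO and 2130 in β-Mfn1KO. Among the 9 genes, 1 did in β-Mfn2KO and 0 did in β-Mfn1KO. The 1 gene was *Slc25a36*, which stood at 3571, 3686, 4313, 3872 and 3534.6 in β-Mfn2KO and had a log2 difference from Ctrl of 0.17 ± 0.06 (SE, adjusted p = 0.93). *Slc25a33* differed from Ctrl by 0.22 (95% interval −0.06 to 0.49, adjusted p = 0.93) in β-Mfn2KO and by 0.30 (95% interval 0.0016 to 0.60, adjusted p = 0.68) in β-Mfn1KO. In β-Mfn1KO its libraries were split, with replicates 1 and 2 above the Ctrl range and replicates 3 and 4 within it. The upper bounds of both intervals lie below the lower bound of 1.29 in β-Mfn1/2DKO. *Tk2* differed by 0.10 in β-Mfn2KO and 0.04 in β-Mfn1KO, and *Rrm2b* by 0.06 and −0.11.

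To ask what loss of the second mitofusin added, β-Mfn1/2DKO was compared with each single knockout. *Slc25a33* was higher by 1.33 ± 0.14 (log2, SE, adjusted p = 1.2e-06) than in β-Mfn2KO and by 1.25 ± 0.15 (adjusted p = 4.4e-06) than in β-Mfn1KO. It was the 1 gene of 9 that passed against β-Mfn2KO, where 13.0% of all genes did. Against β-Mfn1KO 3 of 9 passed, where 17.4% of all genes did, and the other two were *Slc25a36* (0.39 ± 0.07, SE, adjusted p = 0.0003) and *Rrm2b* (0.24 ± 0.06, SE, adjusted p = 0.0041). *Rrm2b* stood at 2149.4, 2106, 2148 and 2312 in β-Mfn1KO, the lowest group mean of the 4, and each of these lay below the lowest β-Mfn1/2DKO library. With the authors' normalization factors the *Rrm2b* difference was 0.14 (adjusted p = 0.14). *Cmpk2* was lower than in β-Mfn2KO by 0.30 ± 0.12 (log2, SE, adjusted p = 0.091), and passed in 5 of 14 alternatives. These comparisons share the β-Mfn1/2DKO libraries with each other and with the comparison to Ctrl. The values of 13.0% and 17.4% are over all genes, while all 9 genes have a mean of at least 50 normalized counts. The share among genes of such a mean was not taken here. Against Ctrl it was 31.9%, where 16.5% of all genes passed.

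The effect of losing *Mfn1* was then compared between mice without and with *Mfn2*. For *Slc25a33* the difference of the effects was 1.03 ± 0.21 (log2, SE, adjusted p = 0.0036), so that on the log2 scale its rise after loss of both genes exceeded the sum of its changes after loss of either. It was the 1 gene of 9 that passed this test, against 5.92% of all genes, again without a separate share for genes of higher mean. In all 12 alternatives it passed, with values from 0.92 to 1.16. The other 8 genes did not pass it, so that for them a different effect with and without *Mfn2* was not shown.

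**Figure D2:**
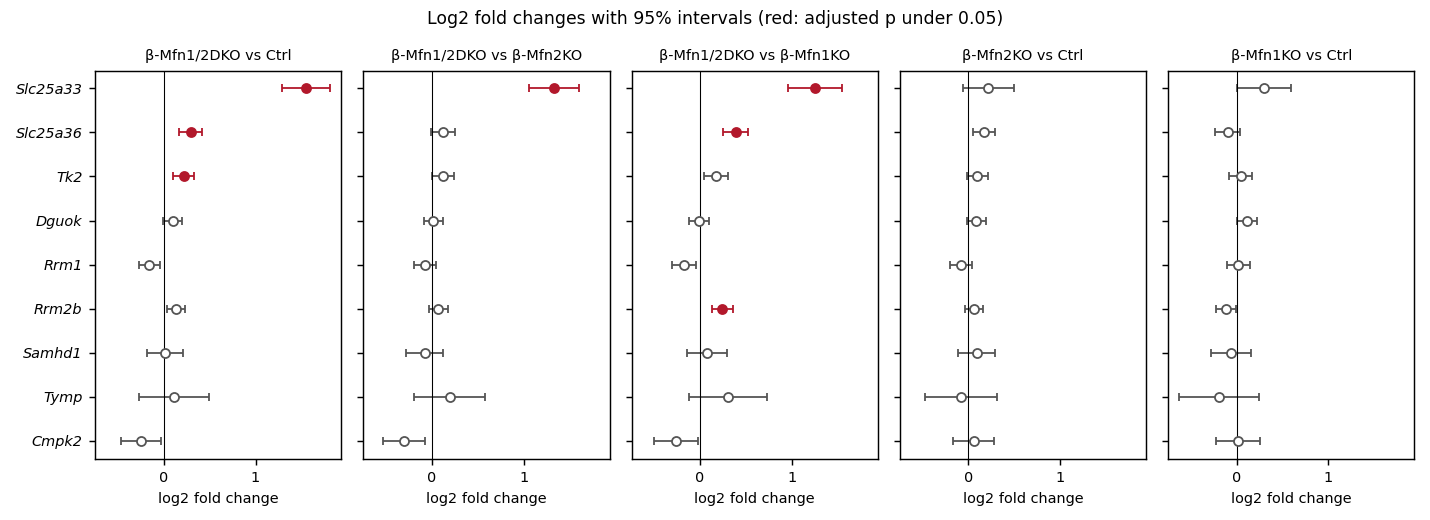
Log2 fold changes (x axis) of the 9 genes (y axis) in 5 comparisons, as points with 95% intervals, red where the adjusted p is under 0.05. *Slc25a33* stands at 1.55, 1.33 and 1.25 in the 3 comparisons of β-Mfn1/2DKO, and no gene is red in either single knockout.

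The genes differed widely in level. Per kb of the longest transcript, *Slc25a36* was highest in Ctrl at 644 ± 49.6 normalized counts per kb (SD, n = 6) and *Tymp* lowest at 39.1 ± 7.34. In order between them came *Tk2* (599), *Rrm2b* (516), *Cmpk2* (422), *Dguok* (383), *Samhd1* (261), *Rrm1* (173) and *Slc25a33* (70.3). The library ranges of *Slc25a36* and *Tk2* overlapped, as did those of *Rrm2b* and *Cmpk2* and those of *Cmpk2* and *Dguok*, and the other neighbours in this order did not overlap. *Slc25a33*, eighth of 9 in Ctrl, β-Mfn1KO and β-Mfn2KO, reached 206 ± 32.0 per kb (SD, n = 5) in β-Mfn1/2DKO. There it ranked seventh, above *Rrm1* (155 ± 6.19), and the ranges of these 2 genes overlapped. Its level remained below that of *Slc25a36* in the same libraries (789 ± 50.3). With the union of exons as length, *Tk2* took first place and *Slc25a36* second in Ctrl, and *Cmpk2* and *Rrm2b* also changed places.

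**Figure D3:**
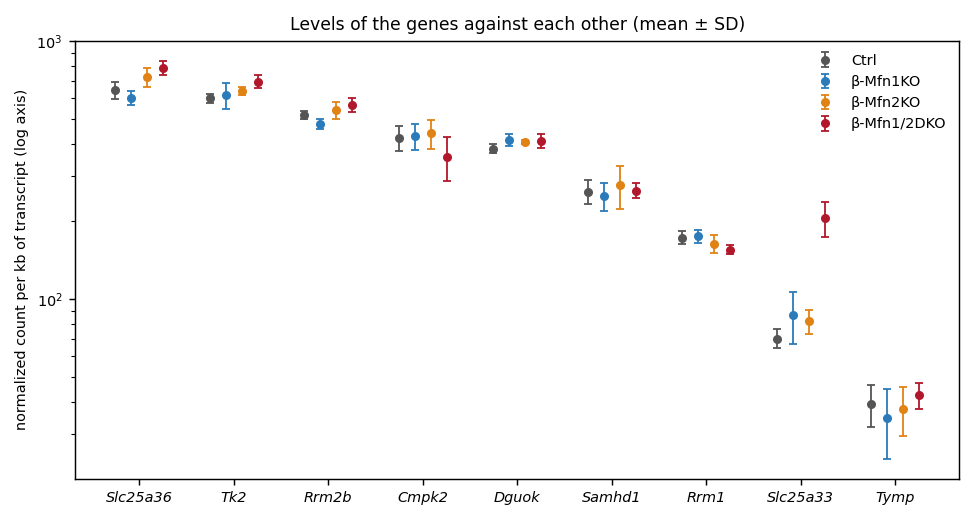
Mean ± SD of normalized counts per kb of transcript (y axis, log scale) of the 9 genes (x axis, in the order of their Ctrl levels) in the 4 groups. *Slc25a33* moves from 70.3 in Ctrl to 206 in β-Mfn1/2DKO, while the other genes keep close to their Ctrl level.

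*Slc25a33* lies on the same chromosome as *Mfn2*, 1.84 Mb from it, and its surroundings were therefore examined. Between both genes lie 30 genes whose mean reached 50 normalized counts, of which 10 passed an adjusted p of 0.05 in β-Mfn1/2DKO against Ctrl, 0 in β-Mfn2KO and 1 in β-Mfn1KO. Within 1 Mb of *Slc25a33*, 6 of 19 such genes passed in β-Mfn1/2DKO, 3 of them higher. Both shares are near the 31.9% of all such genes that passed in this comparison. The region did not stand apart in its count there. None of these 3 exceeded 1.5-fold. Within 1 Mb, the 1 gene that did was the fructose transporter gene *Slc2a5*, which was lower by 0.75 (log2, adjusted p = 3.1e-06). Farther off, between *Slc25a33* and *Mfn2*, *Angptl7* (−1.38, adjusted p = 0.0073) and *Gm572* (−1.26, adjusted p = 7.4e-08) also exceeded 1.5-fold. Both were named after their values were seen. In β-Mfn1KO against Ctrl, where 0.0279% of all genes passed, the 1 gene of the 30 was *Masp2*, named after its values were seen. Its mean was 51.9 normalized counts and its log2 fold change −5.07 (adjusted p = 0.030). In β-Mfn1/2DKO it was higher than in β-Mfn1KO by 5.51 (adjusted p = 5.5e-05). The share of the region that passed against β-Mfn1KO was not set against that of all genes. The antisense transcript *Gm13068*, which overlaps 14.9% of the exon bases of *Slc25a33*, had a mean of 0.6 counts, and no 75-base stretch of *Slc25a33* was shared with another gene. Around the other 8 genes, the neighbours within 1 Mb whose mean reached 50 normalized counts were counted against the same 31.9%. Of these, 1 of 11 passed around *Slc25a36*, 5 of 12 around *Tk2*, 8 of 30 around *Dguok* and 2 of 19 around *Rrm1*. For *Rrm2b* it was 5 of 6, for *Samhd1* 8 of 30, for *Tymp* 10 of 29 and for *Cmpk2* 0 of 2.

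**Figure D4:**
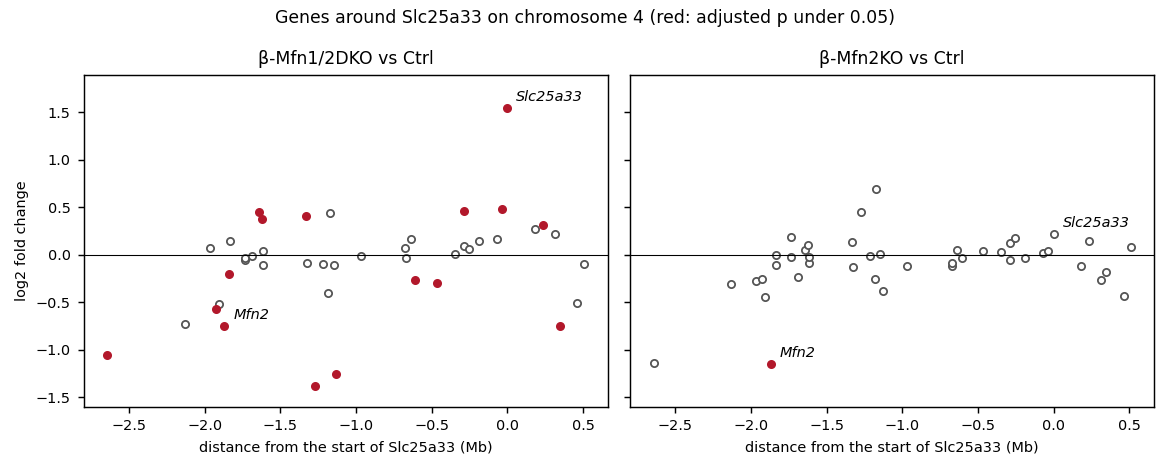
Log2 fold changes (y axis) of genes whose mean reached 50 normalized counts around *Slc25a33*, by distance from it on chromosome 4 in Mb (x axis), for β-Mfn1/2DKO and β-Mfn2KO against Ctrl, red where the adjusted p is under 0.05. *Slc25a33* stands at 1.55 in β-Mfn1/2DKO and at 0.22 in β-Mfn2KO, where *Mfn2* alone is red.

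Promoter windows of 300 bases (250 before the start site and 50 after it) were found for 8 of the 9 genes in the RefSeq table, all but *Rrm2b*. They were searched on both strands for the E-box CACGTG, for CCAAT, for the cyclic AMP response element TGACGTCA, for the C/EBP-ATF composite element TTGCATCA or TGATGCAA, for the NRF1 core GCGCATGC and for GAAANNGAA, the core of the interferon-stimulated response element. *Slc25a33* held CACGTG, with its first base 8 bases before the start site, and CCAAT 81 bases before it. *Slc25a36* held CACGTG at 187, TGACGTCA at 161 and CCAAT at 142 bases before its start, none of them overlapping. CACGTG occurs in 7.15% of the 32851 promoters of the table, CCAAT in 37.4% and TGACGTCA in 1.79%. TGACGTCA was also found in *Dguok*, 4 bases before the start, and CCAAT in *Rrm1* (at 2 places) and *Tymp* (at 2 places, 1 of them on the opposite strand). The composite element, the NRF1 core and the interferon-stimulated core, found in 0.895%, 2.71% and 8.56% of all promoters, were in none of the 8 windows. No searched motif was in the windows of *Tk2*, *Samhd1* and *Cmpk2*. No motif was thus common to the 3 genes that rose.

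The other genes of nucleotide metabolism were read as 87 genes in 10 groups, of which 33 passed in β-Mfn1/2DKO against Ctrl, 20 higher and 13 lower. This share is near the 31.9% of the 13492 genes that passed, so that the counts below describe the groups and do not set them apart from other genes. Past both thresholds with the smallest adjusted p were genes of de novo synthesis. *Cad*, the enzyme of the first steps of pyrimidine synthesis, fell from 5152 to 8235 normalized counts in Ctrl to between 3214 and 3719 in β-Mfn1/2DKO (log2 fold change −0.97 ± 0.10, SE, adjusted p = 4.4e-07). *Ppat*, the first committed enzyme of purine synthesis, fell from between 4408 and 6304 to between 2860.2 and 3213 (−0.88 ± 0.08, adjusted p = 9.1e-08). Ctrl and β-Mfn1/2DKO libraries did not overlap in either gene, and both falls passed in all 13 alternatives. In β-Mfn2KO *Cad* ranged from 5788 to 7529.8 and *Ppat* from 4482 to 5611, within the Ctrl range. Of the 5 genes of pyrimidine synthesis 2 passed, 1 in each direction, and of the 13 of purine synthesis 6 passed, 3 in each direction, so that the falls of the first enzymes were not shared by their whole pathways.

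Among 6 nucleoside transporters of the plasma and lysosomal membranes, *Slc29a2*, an equilibrative transporter, rose by 0.90 ± 0.19 (log2, SE, adjusted p = 0.0017) from 37.4 to 64.0 normalized counts in Ctrl to 87.1 to 97.8. *Slc28a2*, which takes up purine nucleosides with sodium, fell by 1.02 ± 0.20 (SE, adjusted p = 0.00074) from 166 to 298 to between 97.4 and 125. Of 13 nucleotide kinases 4 were higher and 2 lower. *Nme4*, the nucleoside diphosphate kinase of mitochondria, rose by 0.61 ± 0.16 (SE, adjusted p = 0.010). Of 8 genes of deoxynucleotide synthesis 3 were higher, among them the dCMP deaminase *Dctd* (0.77 ± 0.24, SE, adjusted p = 0.027). Of 16 genes of nucleotide breakdown 3 were higher and 1 lower, and adenosine deaminase, *Ada*, rose by 0.79 ± 0.22 (SE, adjusted p = 0.015). Of the other mitochondrial nucleotide carriers 3 of 8 passed (2 higher, 1 lower), of other salvage enzymes 3 of 8 (1 higher, 2 lower), of pool-cleaning enzymes 2 of 5 and of partners of mtDNA maintenance 2 of 5 (1 in each direction each), none of them past 1.5-fold. With depth class in the fit 8 of the 87 genes passed, and *Slc29a2*, *Slc28a2*, *Nme4*, *Dctd* and *Ada* were not among them (*Slc28a2* at −0.19 and *Nme4* at 0.13). The SE was larger in that fit, for *Ada* 0.41 against 0.22, so that a lost call by itself does not show a smaller difference. *Dctd* (0.63, adjusted p = 0.16) and *Ada* (0.70, adjusted p = 0.083) also missed the threshold without β-Mfn1/2DKO replicates 4 and 5. In β-Mfn2KO and β-Mfn1KO against Ctrl 0 of the 87 genes passed in edgeR.

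**Figure D5:**
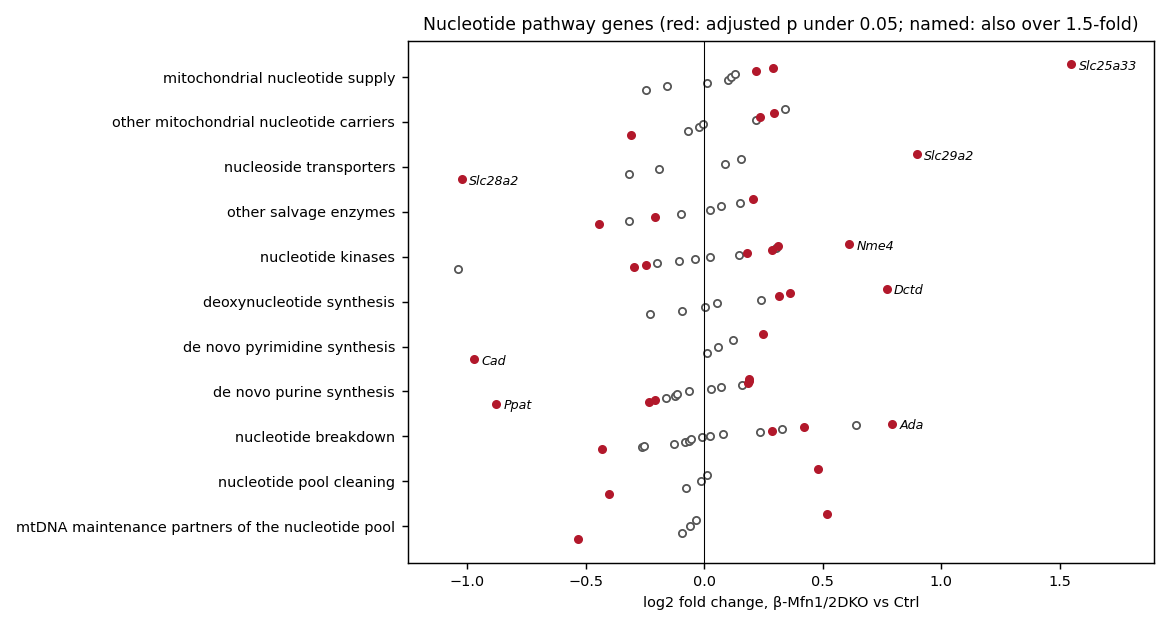
Log2 fold changes in β-Mfn1/2DKO against Ctrl (x axis) of the 9 genes and of 87 other genes of nucleotide metabolism in 10 groups (y axis), red where the adjusted p is under 0.05 and named where the fold also exceeds 1.5. *Slc25a33* is farthest to the right at 1.55, and *Cad*, *Ppat* and *Slc28a2* are the named genes that fell.

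A further 3 sets of genes are close to single members. *Rrm2b* is a target of p53, and 8 of 14 other p53 targets were higher in β-Mfn1/2DKO, 6 of them past 1.5-fold, where 18.7% of the 13492 genes passed upwards and 8.08% passed both thresholds in either direction. They were led by *Eda2r* (1.31), *Phlda3* (1.22) and *Perp* (1.17). The median log2 fold change of the set was 0.53, against 0.03 over the 13492 genes. *Eda2r* ranged from 68.3 to 520 among the β-Mfn1/2DKO libraries, against 49.4 to 116 in Ctrl. Without replicates 4 and 5, the libraries with high acinar markers, the log2 differences of *Eda2r*, *Phlda3* and *Perp* were −0.01, 0.52 and 0.20, and none of the 3 passed. With depth class in the fit they were 0.79 (adjusted p = 0.74), 0.66 (adjusted p = 0.59) and 0.85 (adjusted p = 0.54). *Eda2r* also missed the threshold in 5 further alternatives, among them the acinar marker level as a covariate (0.37, adjusted p = 0.45). *Rrm2b* itself was lowest in these same replicates. *Cmpk2* is induced by interferon, and the median over 18 other interferon-stimulated genes was 0.36, against −0.24 for *Cmpk2* itself. That median was not particular to β-Mfn1/2DKO, as it was 0.39 in β-Mfn2KO and −0.05 in β-Mfn1KO against Ctrl. There *Cmpk2* was at 0.06 and 0.02. *Rrm1* acts in S phase, and of 14 S-phase genes 1 was higher and 2 lower, among them *Ccne2* (−0.70 ± 0.13, SE, adjusted p = 0.00054), which missed the threshold with depth class in the fit (−0.66, adjusted p = 0.17).

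Over the 20 libraries, the genes most like *Slc25a33* among 12274 whose mean reached 100 normalized counts were *Lhfpl2* (Pearson r of log2 CPM 0.96), *Tagln2* (0.95) and *Btf3* (0.94). The libraries share genotype and depth class in these correlations, which are given as a description without a test. *Lhfpl2* was at 1304 to 2445 in β-Mfn1/2DKO and 341 to 647 in all other libraries. *Tagln2* was at 8622 to 10064 against 5485 to 6672, and *Btf3* at 9111 to 10658 against 5311 to 7288.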

How the data were processed

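RNAseq libraries of islets (20, paired-end) were analysed, grouped by the genotype in the labels. Per the study's methods and the labels, the authors trimmed reads with cutadapt 2.3, checked them with FastQC 0.11.8, aligned them to GRCm38 with STAR 2.6.1b, and counted them with RSEM 1.3.1. The deposited table of estimated counts (RSEM expected counts, given as whole numbers) was tested. A second deposited table, a depth-normalized signal that the authors made with DESeq2 1.26.0, served only to derive their normalization factors for an alternative. Whether counting used strand is not given in the sources used here.

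Counts of 28632 genes were fitted with edgeR 4.0.16 (R 4.3.3), using TMM factors and the quasi-likelihood test over all 20 libraries with 1 coefficient per group, without a filter. P-values were two-sided and adjusted by Benjamini-Hochberg over all genes. A call needed an adjusted p under 0.05, and a fold above 1.5 where stated. Normalized counts are TMM-scaled CPM times the mean effective library size. The 95% intervals span 1.96 SE on either side, and are approximate and somewhat narrower than the quasi-likelihood test implies. The fit was tested on simulated data with fewer changed genes than here, balanced in direction and with the same spread for every gene. No conclusion about these data is drawn from that test. The study counts each library as a mouse, and the labels do not say how mice were assigned to library batches. Counts were 12400687 in the shallowest and 122947313 in the deepest library, and counting error is smaller in the deeper libraries.

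The 9 genes and all lists were chosen with earlier results of these data known. Named by rule were all 9 genes, *Mfn1* and *Mfn2*, in each list at most the 3 genes with the largest change past both thresholds, the 3 genes most correlated with *Slc25a33*, and its neighbours within 1 Mb that overlap it or pass both thresholds. Gene positions came from GENCODE mouse release 21 (28579 genes matched by identifier, 53 not) and promoters from RefSeq. Counts for the list of interferon-stimulated genes are not reported here. Alternatives were DESeq2 1.42.0, other scalings, a count filter, covariates (sex, depth class above 40 M counts, acinar level, replicate number), thinned counts and libraries left out. Same-numbered libraries of different groups deviated together in part (mean correlation 0.25 over 27 pairs, lowest −0.10), and were not treated as pairs. Python 3.11.15 with NumPy 2.4.6, pandas 2.3.3 and Matplotlib 3.10.9 was used for tables and plots.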

Additional observations from a re-analysis of the deposited data

Results flagged for a closer look

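The effect of losing *Mfn1* on *Slc25a33* differed by 1.03 (log2) between mice without and with *Mfn2*, by a test of the difference itself. Among 36 combinations of gene and group tested for a library far from the others, 4 had one, where chance gives about 1 in 20. In Ctrl, *Dguok* was low in replicate 4, at 855.9 normalized counts, and *Rrm2b* in replicate 3, at 2194. In β-Mfn2KO, *Samhd1* was high in replicate 5, at 1442, and *Tymp* in replicate 1, at 104.4.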

How the results depend on the processing

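Over 749 values of the named genes under alternatives other than single libraries left out, 673 kept direction and side of the threshold, 26 lost the threshold, 26 passed it anew and 24 changed sign. The rise of *Slc25a33* in β-Mfn1/2DKO passed in all 13 alternatives against Ctrl (1.44 to 1.68), all 14 against β-Mfn2KO (1.22 to 1.43) and all 13 against β-Mfn1KO (1.15 to 1.41). Unless stated, the cause of a change was not tested. Against Ctrl, 5 of the 9 genes passed with total count scaling, and 1 with depth class in the fit. Total count scaling raised the median log2 fold change of genes of a mean of at least 50 by 0.14. Against β-Mfn2KO, 4 passed with total count scaling (a median shift of 0.11), and 2 with DESeq2, the replicate block, the acinar level, thinned counts, or without β-Mfn1/2DKO replicates 4 and 5. For the effect of *Mfn1* loss without and with *Mfn2*, 2 passed with total count scaling. With single libraries left out, the genes that passed numbered 3 to 4 against Ctrl, 1 to 2 against β-Mfn2KO, 3 to 4 against β-Mfn1KO and 1 to 2 for that difference of effects. Among genes of a mean of at least 50 that passed both thresholds, 64.7% were higher in β-Mfn1/2DKO than in Ctrl, and 83.3% with total count scaling. Past both thresholds were 1090 genes of a mean of at least 50, and 432 with depth class.

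Same-numbered libraries had a mean correlation of 0.25, with 21 of 27 pairs over 0.1, and differently numbered ones of −0.054, with 36 of 122 over 0.1. A shared factor behind some numbers was not tested. The number was not taken as a pairing because the labels do not say what it marks and not every pair exceeded 0.1 (the lowest was −0.10), and 10 of 20 libraries matched best with their own number. With the replicate block, 3 of the 9 genes passed against Ctrl, 2 against β-Mfn2KO and 4 against β-Mfn1KO, and *Cmpk2* was the gene added against β-Mfn2KO and β-Mfn1KO (−0.31 and −0.33, adjusted p = 0.044 in both).

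Of the differences that changed sign, only that of *Eda2r* passed the threshold under any of these alternatives, and only where its sign was unchanged. In β-Mfn1/2DKO against Ctrl, *Samhd1* was −0.017 with DESeq2 and with its size factors, −0.0056 with the count filter, −0.29 with depth class, −0.050 with thinned counts and −0.020 to 0.063 with single libraries left out, and *Eda2r* was −0.0064 without replicates 4 and 5. In β-Mfn2KO against Ctrl, *Samhd1* was −0.047 with depth class and −0.039 to 0.146 with single libraries left out, and *Tymp* was 0.022 with depth class and 0.020 with thinned counts. In β-Mfn1KO against Ctrl, *Rrm1* was −0.0068 with total count scaling, −0.085 with the authors' factors and −0.0049 to 0.057 with single libraries left out, and *Cmpk2* was −0.0074 with total count scaling and −0.038 to 0.088 with single libraries left out. There *Tk2* ranged from −0.010 to 0.119 and *Tymp* from −0.328 to 0.0081 with single libraries left out. Against β-Mfn2KO, *Dguok* in β-Mfn1/2DKO was −0.0026 with DESeq2, −0.0083 with its size factors and −0.0069 with thinned counts, *Rrm1* was 0.028 and *Samhd1* 0.027 with total count scaling, and *Samhd1* ranged from −0.108 to 0.077 with single libraries left out. Against β-Mfn1KO, *Dguok* was 0.15 with total count scaling, 0.0074 with the authors' factors, 0.011 with sex, 0.051 with the acinar level, 0.020 with depth class, 0.068 without replicates 4 and 5, and −0.039 to 0.023 with single libraries left out, and *Samhd1* was −0.23 with depth class. With exon unions as length, the ranks in Ctrl were 1 for *Tk2*, 2 for *Slc25a36*, 3 for *Cmpk2* and 4 for *Rrm2b*.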
